A study of Gallus gallus with 6 samples.

Results

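Of 7 SOX transcription factor genes named for this account (SOX4, SOX5, SOX6, SOX7, SOX8, SOX9 and SOX11), 5 were found among 24881 Ensembl genes by an exact match of the listed gene name. SOX7 and SOX11 matched no row and were not analysed here. The tables list 14 SOX genes in all. RNA was sequenced from primary skeletal muscle cells of the chicken embryo at passage 1, in 3 libraries per group. Myoblasts, the dividing mononucleated precursors of muscle fibres, were harvested while proliferating, in RPMI-1640 medium with 15% fetal bovine serum, penicillin and streptomycin. Myotubes, the multinucleated cells formed by fusion, came from such myoblasts made to differentiate in RPMI-1640 with 2% horse serum and the same antibiotics. The labels name no harvest day, genotype or embryo age, and do not say whether a group's libraries are from separate cultures or animals. The p-values therefore measure only the spread between these libraries, which may be technical.

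SOX proteins bind the minor groove of DNA through a high-mobility-group box and bend it, and they usually act together with partner factors. They are grouped by the sequence of that box. SOX4 and SOX11 belong to group C, activators expressed in many embryonic progenitors and immature neurons. SOX5 and SOX6 belong to group D, whose members lack an activation domain of their own. SOX8, SOX9 and SOX10 form group E, and SOX7 belongs to group F, known from the endothelium. In mouse muscle, SOX6 represses slow-fibre genes in fast fibres, and SOX8 and SOX9 have been described in satellite cells. SOX9 together with SOX5 and SOX6 drives cartilage formation. SOX5, SOX8 and SOX9 are also used by neural crest cells, so the name of the group does not separate these genes from that lineage.

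SOX4 rose 4.29-fold in myotubes, where it was the most abundant of the 14 listed SOX genes. SOX5, SOX8 and SOX9 fell 1.95-fold, 1.32-fold and 1.89-fold. SOX6, the scarcest of the 5, was higher in myotubes as well. Levels are given as deposited FPKM, fragments per kilobase of gene scaled for sequencing depth, when genes are compared with each other. They are given as CPM, read counts scaled to a common library size by TMM factors but not for gene length, when groups are compared. Counts were tested by edgeR's quasi-likelihood test with Benjamini-Hochberg adjustment, and a gene is called at an adjusted p under 0.05. The test covered the 12808 genes whose FPKM averaged 1 or more over the libraries, and 72.5% of them were called, 36.7% higher and 35.7% lower in myotubes. Of the 5 genes, 4 passed that filter and all 4 were called, 1 higher and 3 lower. Against that background the number of calls says nothing particular about SOX genes. In CPM the groups did not overlap for any of the 4, as for 76.1% of tested genes. Every myotube library lay above every myoblast library for 38.6% of tested genes, as for SOX4, and below for 37.5%, as for the other 3.

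**Figure D1:**
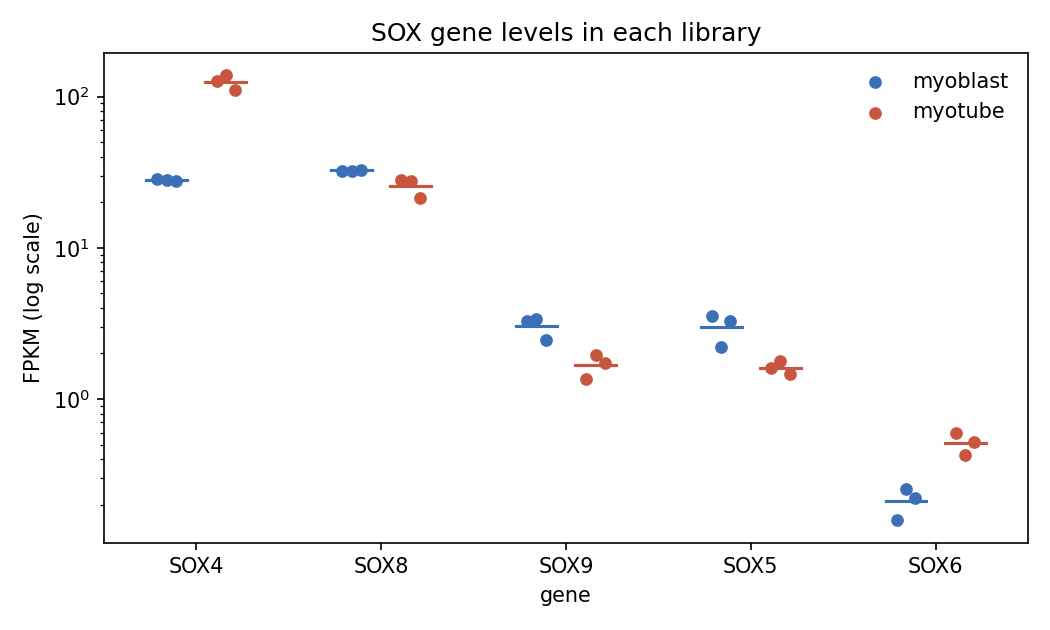
FPKM (log axis) of the 5 listed SOX genes in each of the 3 myoblast and 3 myotube libraries. Each point is a library and each horizontal line a group mean. SOX4 moves from between 27.6 and 28.3 in myoblasts to between 110.4 and 138 in myotubes, and the groups do not overlap for any of the 5 genes. In CPM the groups did not overlap for 76.1% of the tested genes, which leave out SOX6.

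Group C was represented by SOX4 (ENSGALG00000036497, chromosome 2, 59096907 to 59098672, minus strand). The listed length of 1766 bases equals the span, so the gene is listed without introns. These and the following coordinates are those listed in the tables, whose genome build is not named. The myoblast libraries held 802, 823 and 1024 SOX4 counts, or 51.7, 51.4 and 51.6 CPM. The myotube libraries held 5268, 5589 and 4269 counts, or 227, 242 and 194 CPM. Every myotube library lay far above every myoblast library, and the myotube libraries also spread more widely. The means were 51.5 ± 0.130 CPM in myoblasts and 221 ± 24.7 CPM in myotubes (SD, n = 3). The log2 fold change was 2.10 with a standard error of 0.08 (edgeR adjusted p = 1.09e-08). Of all tested genes, 3.8% had a log2 fold change at least as high. By FPKM, SOX4 ranked between 3871 and 3886 of 24881 genes in the myoblast libraries and between 711 and 897 in the myotube libraries.

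Group E was represented by SOX8 (ENSGALG00000005263, chromosome 14, 5774171 to 5777561, minus strand) and SOX9 (ENSGALG00000004386, chromosome 18, 8866456 to 8869366, plus strand). SOX8 had 835, 870 and 1112 counts in myoblasts, or 53.8, 54.3 and 56.0 CPM. In myotubes it had 1068, 1019 and 751 counts, or 46.0, 44.2 and 34.1 CPM. Myotube replicate 3 was the lowest, as it also was for SOX4 among the myotube libraries, and the groups did not overlap. The fall was by 0.40 on the log2 scale with a standard error of 0.11 (edgeR adjusted p = 0.0063). When libraries were rescaled to the TPM scale, SOX8 was no longer called (limma adjusted p = 0.075, log2 fold change -0.22). The median shift of a tested gene's log2 fold change from the main fit to that scale was 0.18. Relative to that shift the SOX8 change was -0.40. An unnamed Ensembl gene on the same strand (ENSGALG00000032326, 5772749 to 5864960) spans SOX8, with 1437 counts in all in myoblasts and 1450 in myotubes. How reads shared by the pair were assigned is not given, so the SOX8 counts are uncertain.

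SOX9, the master regulator of cartilage formation, was far scarcer than SOX8, which stood at 9.61 to 20.9 times its FPKM in the 6 libraries. It had 87, 92 and 84 counts in myoblasts, or 5.60, 5.75 and 4.23 CPM. In myotubes it had 52, 73 and 62 counts, or 2.24, 3.16 and 2.81 CPM. The groups did not overlap, with myoblast replicate 3 the lowest of its group. SOX9 fell by 0.92 on the log2 scale with a standard error of 0.20 (edgeR adjusted p = 0.0022), and 12.6% of tested genes had a log2 fold change as low. The exact 95% interval of the smallest count, 52, runs from 38.8 to 68.2 and covers counting error only.

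The SOX5 and SOX6 genes of group D changed in opposite directions. SOX5 (ENSGALG00000032768, chromosome 1, 65938356 to 66226982, plus strand) spans 288627 bases with a listed transcript length of 2319. Its counts were 132, 85 and 160 in myoblasts, or 8.50, 5.31 and 8.06 CPM, and 88, 94 and 74 in myotubes, or 3.79, 4.07 and 3.36 CPM. Myoblast replicate 2 stood between the other myoblast libraries and the myotubes. SOX5 fell by 0.96 on the log2 scale with a standard error of 0.20 (edgeR adjusted p = 0.0014). On the log2(FPKM + 1) scale, where low genes change less, SOX5 fell by 0.60 and SOX9 fell by 0.59, and both were still called by limma.

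SOX6 (ENSGALG00000006074, chromosome 5, 11115670 to 11366088, minus strand) had a mean of 0.361 FPKM and lay under the filter. It had 6, 10 and 11 counts in myoblasts and 33, 23 and 27 in myotubes. Every myotube library had more SOX6 reads than any myoblast library, at 0.522 ± 0.122 CPM in myoblasts and 1.21 ± 0.213 in myotubes (SD, n = 3). The share of genes under the filter with such a separation was not computed. Fitted without the filter, where 52.7% of 20031 genes were called and 27.8% were called higher, SOX6 rose 2.30-fold (log2 fold change 1.20, standard error 0.37, edgeR adjusted p = 0.014). An unnamed gene within SOX6 on the same strand (ENSGALG00000035271) had 0 counts in myoblasts and 3 in myotubes.

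Within a library, the ratio of SOX6 to SOX5 does not depend on how the library is scaled. SOX5 was 22.5, 8.69 and 14.9 times SOX6 by FPKM in the myoblast libraries and 2.72, 4.18 and 2.80 times in the myotube libraries. The ratio was nearer to even in every myotube library than in any myoblast library. The log2 ratio of SOX6 to SOX5 was -3.83 ± 0.688 in myoblasts and -1.66 ± 0.345 in myotubes, a difference of 2.17 (exact permutation p = 0.1, two-sided, n = 3 per group, the smallest that 3 against 3 allows). SOX6 was higher and SOX5 lower in every myotube library than in any myoblast library. The ratio therefore had to separate the groups, and the exact permutation p had to be 0.1. Neither adds evidence to the changes of the separate genes. The myoblast ratios rest on 6, 10 and 11 SOX6 counts. The log2 ratio of SOX9 to SOX8 was -3.43 ± 0.274 in myoblasts and -3.94 ± 0.394 in myotubes, and the ranges overlapped. That difference of -0.51 did not separate the groups (exact permutation p = 0.2, two-sided, n = 3 per group), and it was -0.29 without myotube replicate 1. The SOX11 to SOX4 ratio was not analysed here.

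**Figure D2:**
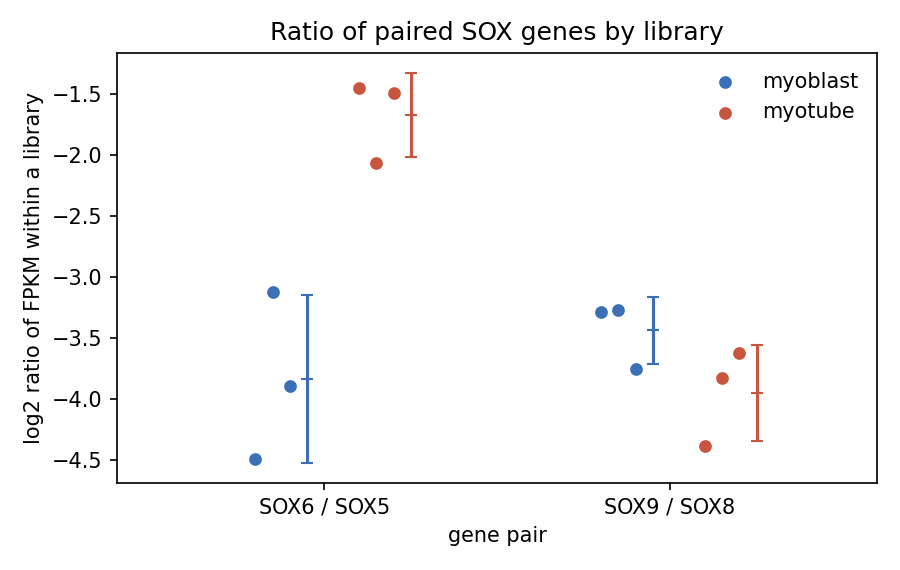
Log2 ratio of FPKM within each library for SOX6 over SOX5 and SOX9 over SOX8. Points are libraries, and bars are group means ± SD (n = 3). The SOX6 to SOX5 ratio is separated between groups, from -3.83 in myoblasts to -1.66 in myotubes, while the SOX9 to SOX8 ratio overlaps. That separation follows from SOX6 being higher and SOX5 lower in every myotube library.

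By deposited FPKM, the only change in the order of the 5 genes was at the top, and it rests on an uncertain order in myoblasts. In myoblasts SOX8 came first at 32.5 ± 0.334 FPKM and SOX4 next at 27.9 ± 0.328, and their ranges did not overlap. That lead of 1.16-fold depends on the listed gene lengths and on the SOX8 counts, which the overlapping gene makes uncertain. The SD covers neither, so the order of SOX8 and SOX4 in myoblasts is uncertain too. In myotubes SOX4 came first at 125 ± 14 FPKM, 4.88 times SOX8 at 25.7 ± 3.83. SOX9 and SOX5 followed in both groups and did not differ beyond their spread, at 3.04 ± 0.516 and 3.01 ± 0.717 FPKM in myoblasts and 1.67 ± 0.302 and 1.61 ± 0.157 in myotubes. SOX6 was last, at 0.211 ± 0.0484 FPKM in myoblasts and 0.512 ± 0.0843 in myotubes. The difference between the lower SOX genes thus narrowed, with SOX5 at 14.3 times SOX6 in myoblasts and 3.15 times in myotubes.

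Summed over the 14 listed SOX genes, FPKM was 75.1 ± 0.832 in myoblasts and 159 ± 18.1 in myotubes. SOX4 made up 37.2% ± 0.0905 of the sum in myoblasts and 79.0% ± 0.898 in myotubes, while SOX8 made up 43.2% ± 0.918 and 16.2% ± 1.02 (SD, n = 3). The increase of SOX4 exceeded that of the sum. The 5 genes together held 88.8% ± 0.895 of the summed FPKM in myoblasts and 97.5% ± 0.0986 in myotubes. Most of the remainder in myoblasts was SOX10, a factor of the neural crest and its glial and pigment derivatives, at 6.37% ± 0.241 against 0.0255% ± 0.0163 in myotubes.

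**Figure D3:**
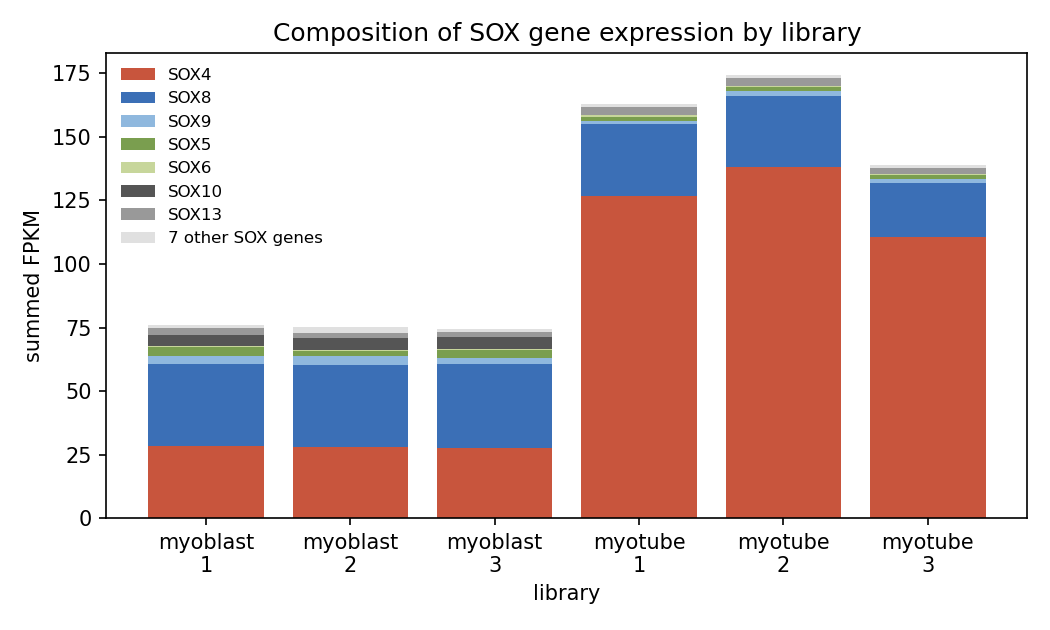
Summed FPKM of all 14 listed SOX genes in each library, stacked by gene. The bars rise from about 75.1 in myoblasts to 159 on average in myotubes, and the SOX4 segment takes up the added height.

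Of the 9 other listed SOX genes, SOX10 and SOX13 were abundant enough to be tested. SOX10 had 248, 267 and 342 counts in myoblasts and 5, 1 and 3 in myotubes, and fell 121-fold (edgeR adjusted p = 6.9e-09). SOX13, the third member of group D, had 4.98 ± 0.657 CPM in myoblasts and 6.14 ± 1.16 in myotubes with overlapping groups, and was not called (log2 fold change 0.31, standard error 0.18, edgeR adjusted p = 0.153). Without myotube replicate 3 it was called, at 0.45 (edgeR adjusted p = 0.0444). SOX18, an endothelial gene of group F, had 42 counts in all in myoblasts and 35 in myotubes, and SOX21 had 34 and 33. SOX2 had 3 and 12, SOX12 had 9 and 3, SOX14 had 0 and 2, SOX1 had 0 and 1, and SOX30 had none. None of the 6 with counts was called by edgeR without the filter.

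Both matched genes of a list of SOX4 and SOX11 targets known from mammals were higher in myotubes, of 5 entries. That call was made for 36.7% of all tested genes. DCX, a microtubule-binding protein of immature neurons, had 2.89 ± 0.948 CPM in myoblasts and 14.6 ± 3.11 in myotubes, a 5.12-fold rise (edgeR adjusted p = 9.26e-06). CALD1, the actin- and myosin-binding protein caldesmon, rose 1.54-fold from 371 ± 23.4 to 572 ± 11.6 CPM. TEAD2, TUBB3 and MAP2 were not matched to a row and were not analysed here. With 2 genes this is a pair of values and not a statement on the targets.

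Of 5 tested genes on a list of SOX partner proteins, 3 rose, 1 fell and 1, HDAC1, was not called. The list also holds CCND1, which encodes cyclin D1 and is a cell cycle gene rather than a partner protein. Shares called over all tested genes were 36.7% higher and 35.7% lower. The median log2 fold change of the listed genes was 0.63, which is the value of CCND1 itself, against 0.01 over all tested genes. EP300, a histone acetyltransferase and co-activator, rose 3.39-fold from 41.6 ± 1.39 to 141 ± 3.69 CPM. CREBBP, its paralog, rose 2.00-fold to 153 ± 8.61 CPM, and CCND1 rose 1.55-fold to 58.4 ± 4.76 CPM. CTNNB1, which encodes beta-catenin, was 1.13-fold lower. That call was lost with library totals, upper-quartile factors, quantile normalization, on the FPKM scale and without myoblast replicate 2 (log2 fold change -0.17, edgeR adjusted p = 0.0505), and on the TPM scale the sign turned to 0.01. HDAC1, a histone deacetylase, was called higher with library totals and on the FPKM and TPM scales. PPARGC1A, a co-activator of oxidative metabolism genes, lay under the filter, at 0.380 ± 0.111 CPM in myoblasts and 2.83 ± 0.421 in myotubes. CTBP2, a SOX6 corepressor, was not matched to a row.

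Cartilage genes, which include the best known targets of SOX9 with SOX5 and SOX6, were lower in most cases. Of 13 matched, 5 passed the filter, with 3 lower, 1 higher and 1 not called. Among all tested genes, 35.7% were called lower and 36.7% higher. Without the filter 9 of the 13 were lower and 2 higher, where 25.0% of all genes were called lower and 27.8% higher. Their median log2 fold change was -1.70, against 0.12 over all genes in that fit. COL9A3, a chain of cartilage collagen IX, fell 3.25-fold from 6.57 ± 0.315 to 2.02 ± 0.491 CPM, and CNMD, chondromodulin, fell 2.29-fold to 11.04 ± 1.23 CPM. ACAN, the cartilage proteoglycan aggrecan, went from 6.08 ± 0.547 to 1.11 ± 0.0607 CPM. The genes that were higher were COMP, a matrix protein made by cartilage and tendon alike, 4.11-fold to 21.4 ± 1.55 CPM, and MATN4, a matrilin, with 1 count in all in myoblasts and 82 in myotubes. Summed FPKM of the list was low, between 28.2 and 31.0 in myoblasts and between 23.3 and 25.3 in myotubes. COL2A1, the defining cartilage collagen, was not matched to a row. SOX9 and SOX5 were lower in the same libraries and SOX6 was higher, and no relation of these to the cartilage genes was tested.

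Slow-fibre and fast-fibre genes, of which the slow ones are SOX6 targets in the mouse, mostly rose, both kinds. Of 7 tested slow-fibre genes 6 rose and 1 fell, with a median log2 fold change of 1.20. All 5 tested fast-fibre genes rose, with a median of 1.83. Over all tested genes 36.7% were called higher and 35.7% lower, and the median was 0.01. Among slow genes, MYBPC1, a myosin-binding protein, rose 57.2-fold, from only 23 counts in all in myoblasts. CASQ2, a calcium-binding protein of the sarcoplasmic reticulum, rose 3.36-fold, and TNNI1, slow troponin I, rose 2.62-fold to 575 ± 49.0 CPM. TPM3, a tropomyosin also used by non-muscle cells, fell from 1309 ± 32.0 to 693 ± 31.3 CPM. Among fast genes, the calcium buffer PVALB rose 21.2-fold, from only 47 counts in all in myoblasts. TNNT3, fast troponin T, rose 5.32-fold and TNNC2, fast troponin C, rose 3.54-fold to 244 ± 13.0 CPM. SOX6 and the slow genes were thus higher in the same libraries, and no relation between them was tested.

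**Figure D4:**
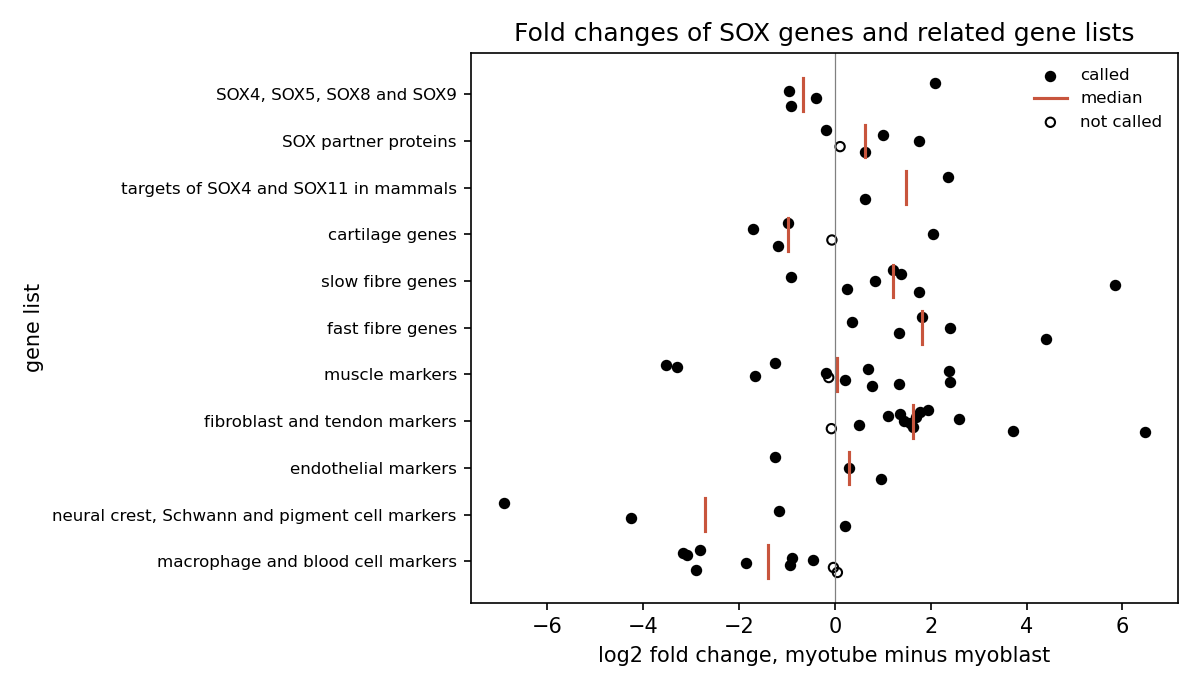
Log2 fold change, myotube minus myoblast, of every tested gene in each list shown, with the 4 tested SOX genes in the first row. Filled points passed an adjusted p under 0.05, open points did not, and red lines are medians. SOX4 at 2.10 lies apart from the 3 SOX genes that fell, fibre genes and fibroblast markers lie mostly above 0, and the 8 called macrophage and blood cell markers lie below it.

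Markers of other cells moved with the groups as well. In bulk RNA, fewer cells of a type and less RNA per cell cannot be told apart. Of the 12 muscle markers, 6 rose and 5 fell. Of all tested genes, 36.7% were called higher and 35.7% lower. Summed FPKM of the muscle markers was between 1639 and 1737 in myoblasts and between 1702 and 1754 in myotubes. MYF5 and MYF6, both myogenic factors, fell 11.5-fold and 9.75-fold while TNNT3 rose, and none of the list was at 0. PAX7, a factor of muscle progenitors, fell 3.18-fold from 105 ± 6.53 to 32.9 ± 5.16 CPM, and MYOD1 fell 2.39-fold. That is the direction of SOX5, SOX8 and SOX9. DES, the filament protein desmin, fell by 0.18 on the log2 scale. Its call was lost with library totals, upper-quartile factors, quantile normalization, on the FPKM and TPM scales, and without myoblast replicate 2 (-0.17), myoblast replicate 3 (-0.18) or myotube replicate 3 (-0.14). Of 13 tested fibroblast and tendon markers, 12 rose and none fell, though THY1, not called at -0.07, was called lower without myotube replicate 1 (-0.22, edgeR adjusted p = 0.00442). The list had summed FPKM from 2084 to 2122 in myoblasts and from 4472 to 5122 in myotubes. DPT rose 89.3-fold, from only 38 counts in all in myoblasts. FBLN1 rose 13.1-fold and PDGFRA, a receptor of fibroblastic progenitors, rose 6.05-fold. All of these moved in the same direction as SOX4. Their part in the SOX4 result was not tested.

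The neural crest, Schwann and pigment cell markers moved in the direction of SOX5, SOX8 and SOX9. Over all genes, 35.7% were called lower with the filter and 25.0% without it. Of 4 tested markers, SOX10 among them, 3 fell and 1 rose. Of 11 markers without the filter 5 fell and 1, TFAP2A, rose, from 25 counts in all to 162. Summed FPKM lay between 153 and 155 in myoblasts and between 73.0 and 79.2 in myotubes, most of it FABP7, which fell 2.25-fold. NGFR, the neurotrophin receptor of Schwann cells and their precursors, fell 19.2-fold to 0.336 ± 0.0584 CPM. MITF, the tested gene that rose, did so 1.15-fold, at an edgeR adjusted p of 0.0483. Its call was lost with DESeq2, median-of-ratios factors, quantile normalization, the other filters and a replicate block, and in 4 of 6 fits that left out a library, at 0.16 to 0.19 on the log2 scale (without myoblast replicate 2 or 3, or myotube replicate 1 or 3). Macrophage and blood cell markers fell in 8 of 10 tested cases and rose in none, with summed FPKM from 778 to 819 in myoblasts and from 174 to 201 in myotubes. C1QB fell 8.97-fold, C1QC fell 8.51-fold and LY86 fell 7.45-fold, and PTPRC, the leukocyte antigen CD45, fell by 0.46 on the log2 scale, a call lost on the TPM scale (-0.25, limma adjusted p = 0.0532). Of the red cell genes, HBAD and RHAG held 1 count in all, while GATA1, a red cell and platelet lineage factor, held 186 counts in myoblasts and 256 in myotubes and was not called. The part of either cell type, or of muscle progenitors, in the SOX5, SOX8 and SOX9 results was not tested.

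Endothelial markers were scarce. Of 10 matched, 3 were tested, with EGFL7 1.95-fold and CLDN5 1.23-fold higher and FLT1 2.39-fold lower. All 3 were called, as were 72.5% of all tested genes. The CLDN5 call was lost without myoblast replicate 3, myotube replicate 1 or myotube replicate 2, at log2 fold changes of 0.25, 0.22 and 0.28. Summed FPKM lay between 24.3 and 26.9 in myoblasts and between 28.6 and 35.4 in myotubes, most of it CLDN5. The defining genes CDH5, KDR, TEK and TIE1 each stood under 1 CPM on average in both groups.

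The genes whose pattern over the 6 libraries was most like each SOX gene were found by the root mean square difference of centred log2 CPM, among 8699 tested genes with a symbol. For SOX4 they were C1QTNF5, ENPP3 and AOX1, with differences of 0.08, 0.10 and 0.10. ENPP3, an ecto-nucleotidase, went from 23.5 ± 0.156 to 93.4 ± 3.98 CPM and AOX1, aldehyde oxidase, from 7.13 ± 0.260 to 30.4 ± 0.455 CPM. For SOX8 they were MMS19, KLF11 and TESK1, with differences of 0.05 each, and KLF11, a zinc-finger factor, went from 49.0 ± 0.726 to 37.8 ± 4.48 CPM. For SOX9 they were BEND6, PLCXD1 and B3GAT2 (0.08, 0.10 and 0.11), and for SOX5 PHOSPHO2, RGS19 and RFX2 (0.16, 0.17 and 0.17). The likeness is a description of 6 libraries that fall into 2 groups, so many genes with a similar fold change come close.

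**Figure D5:**
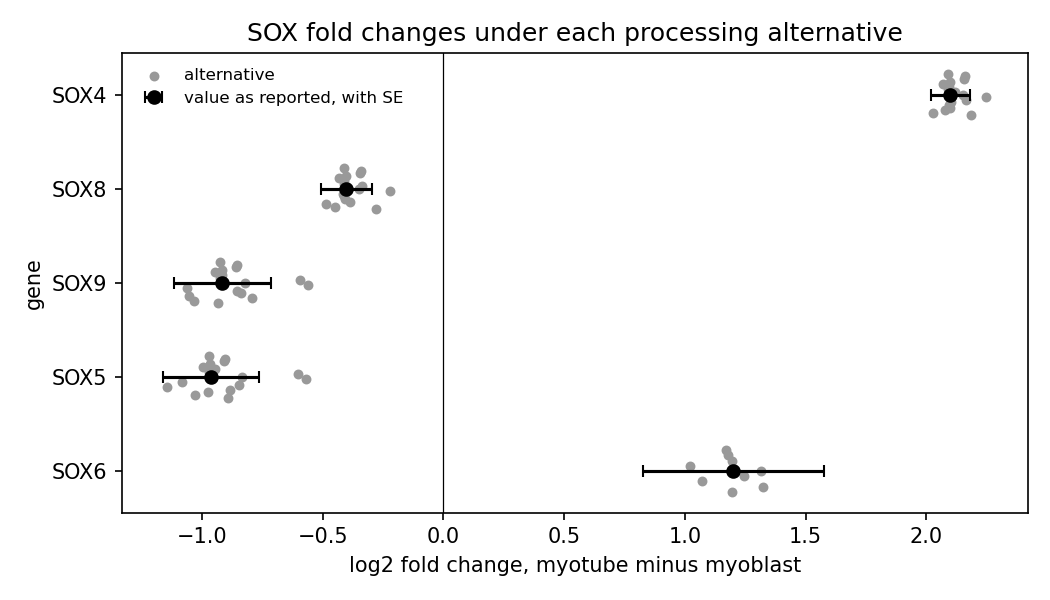
Log2 fold change, myotube minus myoblast, of each SOX gene as reported (black, with its standard error) and under each processing alternative (grey points). No alternative moves a gene across 0, with SOX4 between 2.03 and 2.25 and SOX8 between -0.49 and -0.22. SOX6 values come from fits without the filter or with another filter.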

How the data were processed

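Total RNA from 3 myoblast and 3 myotube libraries was sequenced with Illumina protocols, per the labels' protocols. Each library's table, as deposited by the authors, gives per gene the raw count of reads and the FPKM, per the file headers. HISAT and HTSeq are named in the submitters' processing notes. Versions, build, strand setting and the handling of shared reads are not stated in these sources. Totals were 16052542 to 20981337 counts per myoblast library and 21893152 to 23519295 per myotube library. Loci without an Ensembl identifier, 1.66 to 2.12% of counts, and 2 rows of stray text in each myotube table were left out.

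Groups came from the labels. Genes averaging 1 FPKM or more were tested on counts with edgeR 4.0.16 (R 4.3.3), TMM, quasi-likelihood F-test, two-sided, adjusted over all tested genes. CPM of every gene uses the TMM-scaled library sizes of the tested genes. The common biological coefficient of variation was 0.0975, and the test was first run on simulated data. That run, with a dispersion of 0.02 and 200 changed genes, recovered 44% of 1.5-fold changes and 100% of 2-fold, 4-fold and 8-fold changes. It held no change as small as the 1.32-fold of SOX8. Far fewer genes were changed in it than the 9283 called here, so it does not measure performance on these data. Alternatives used DESeq2 1.42.0, limma 3.58.1, other scalings, filters and pseudocounts, a replicate block and leaving out each library. Exact intervals cover counting error only.

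Members and gene lists were chosen with earlier results of these data known. The 11 lists hold 130 entries, of which 104 matched a row, 3 of them by an alias. Named are the listed SOX genes, in each list the 3 called genes with the greatest absolute log2 fold change, and the 3 genes most like each tested SOX gene. Other list genes are examples chosen after their values were seen.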

Additional observations from a re-analysis of the deposited data

How the results depend on the processing

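SOX4, SOX5 and SOX9 kept direction and call under all 18 alternatives, and SOX8 under 17. SOX8 lost its call on the TPM scale, at -0.22, and the cause was not tested. SOX6, fitted without the filter, missed the stricter threshold of 0.01 at its unchanged log2 fold change of 1.20. Its adjusted p ran from 0.0088 to 0.0498 over the other alternatives, those with no filter combined with another choice being added after the data were seen. Leaving out 1 library gave SOX8 from -0.49 to -0.28 and SOX5 from -1.15 to -0.84.

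With the replicate number as a block, 8784 genes were called against 9283, and the 4 SOX genes stayed called, with SOX4 at 2.09, SOX5 at -0.94, SOX8 at -0.41 and SOX9 at -0.92. SOX6 was at 1.20 with that block and no filter. The block left the ratio differences at 2.17 and -0.51 (exact p = 0.25, the smallest it allows, and 0.5). Same-numbered libraries correlated at -0.0351, 0.104 and -0.155 in their deviations from group means, and differently numbered ones at -0.15 to 0.184. These values show no sign of pairing by number, but so few libraries cannot exclude it. SOX6 is limited by depth, with 27 counts over the myoblasts and 83 over the myotubes.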

Other observations

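Myoblast libraries differed in some of the scarcer SOX genes. In the cases below, only replicate 2 stood clear of the others by exact counting intervals, for SOX5 and SOX21. Counts are not scaled for depth, which was greatest in replicate 3. Replicate 2 held 85 SOX5 counts against 132 and 160 (5.31 against 8.50 and 8.06 CPM). It held 23 SOX21 counts against 5 and 6 (1.44 against 0.322 and 0.302 CPM). Replicate 3 had the lowest SOX9 level, 4.23 CPM against 5.60 and 5.75, though the exact counting intervals of SOX9 overlap between libraries. Replicate 1 had 6 SOX6 counts against 10 and 11, 18 SOX18 counts against 10 and 14, and all 3 SOX2 counts of the group, and the exact counting intervals of these last 3 genes overlap between libraries. For SOX4 and SOX8 the 3 myoblast libraries lay within 51.4 to 51.7 and 53.8 to 56.0 CPM.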
